A study of Mus musculus with 714 samples.

Results

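The developmental patterning transcription factors are the proteins that give cells their place and kind in an embryo, and their genes were followed here in the epithelium of the mouse uterus after birth. Members were chosen by gene name alone. They were the rows named for the Hox clusters A to D, for the Six-type, Pax, Emx, Lhx, Msx, Dlx, Meis, Pbx, Irx, Tbx, Sall, Tead, Sox, Fox and Klf factors, for Gata factors other than Gata2, and for Wt1. This gave 38 rows with at least 50 counts and 97 rows with fewer, together 1.08% of the 12479 rows of the count table. Among them, 16 were non-coding RNAs named after a factor (such as Hoxb3os, the antisense RNA of the Hoxb2 and Hoxb3 region), and 6 shared only the letters of a family name (Gatad1, Gatad2b, Paxbp1, Pbxip1, Tbxa2r and Tbxas1). These 2 kinds were kept apart from the family sums, and all other rows were factor genes.

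The data came from 714 single cells of ICR mice, an outbred stock, sorted from the uterus by the epithelial surface protein CD326 (EpCAM). The groups were 5 ages, postnatal day (pnd) 0, 7, 14, 28 and 56. The titles of the cells fall into blocks of 96 numbers, called runs here, each with cells of 1 age. There were 88 and 85 cells in runs 1 and 2 at pnd0, 88, 87 and 92 in runs 5, 6 and 10 at pnd7, 70, 24 and 79 in runs 3, 4 and 7 at pnd14, 56 in run 9 at pnd28 and 45 in run 8 at pnd56. The labels do not state what a run was, and run and age cannot be told apart. No genotype, allele or agent is given for any group, and the labels name no animal, litter or pool. Each age was therefore 1 sample without a replicate check, no test between ages was possible, and every interval below is a 95% interval of counting error only.

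The genes of these families act as switches above many targets. HOX genes are expressed along the body and the reproductive tract in their order on the chromosome, and their proteins bind DNA with the cofactors MEIS and PBX. In the mouse, Pax2, Emx2, Lhx1 and Wt1 take part in forming the urogenital ducts, from which the Müllerian duct becomes oviduct, uterus and upper vagina. TEAD proteins carry YAP and TAZ, the effectors of the Hippo growth pathway, to DNA. KLF factors bind GC-rich and CACCC sequences, and several of them work with steroid receptors in the uterus.

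The promoters of Klf9 and Tead2 are shown because these genes ranked highest, of the members with a promoter entry, among those higher and lower at pnd14 than at pnd7. Ranking was by the interval bound nearest to no difference, and Wt1, ranked above Klf9, had no entry. Both come from RefSeq (build GRCm38.p6), read 5′ to 3′ on the plus strand from 250 bases before the start of the gene to 50 after it. A promoter entry was found for 84 members. Klf9 lies at chr19:23140976-23141275 and Tead2 at chr7:45215542-45215841. Capitals mark matches, on either strand, to the GC box, spelled GGGCGG. They also mark the CACCC box, bound by KLF factors, and the CCAAT box of many promoters, both named by their letters.
Klf9: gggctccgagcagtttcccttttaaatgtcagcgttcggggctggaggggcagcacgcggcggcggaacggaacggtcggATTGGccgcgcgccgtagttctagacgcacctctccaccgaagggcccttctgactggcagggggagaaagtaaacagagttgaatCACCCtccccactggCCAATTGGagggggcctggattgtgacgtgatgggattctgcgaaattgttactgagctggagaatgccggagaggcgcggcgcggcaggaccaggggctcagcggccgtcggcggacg
Tead2: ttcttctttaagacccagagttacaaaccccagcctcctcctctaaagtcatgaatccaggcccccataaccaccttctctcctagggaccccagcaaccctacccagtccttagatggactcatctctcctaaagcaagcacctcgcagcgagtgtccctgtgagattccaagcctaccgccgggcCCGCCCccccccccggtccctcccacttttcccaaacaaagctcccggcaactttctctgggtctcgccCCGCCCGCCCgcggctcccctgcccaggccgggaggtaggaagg
The Klf9 window held 1 CACCC box and 3 CCAAT boxes, of which 2 overlap, and no GC box. The Tead2 window held 3 GC boxes, of which 2 overlap, and neither of the other boxes. The TEAD motif GGAATG, held by 14.7% of promoters, and the TATA box TATAAA, held by 13.6%, were also searched on both strands. Neither window held them. The nuclear receptor half-site AGGTCA, held by 16.3%, was in neither window as well. Of 32851 mouse promoters of the same length, 35.7% held a GC box, 57.5% a CACCC box and 37.4% a CCAAT box. The GC content was 63.3% for Klf9 and 61.3% for Tead2, against a median of 52.7% over all promoters. These matches describe the letters of the windows and no binding was measured.

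Levels are counts per 1000000 counts (CPM), from the counts of a gene and of all genes, each summed over the cells of an age. CEL-seq reads only the 3′ end of each transcript, so CPM was not divided by gene length, and levels are compared here between ages and cells rather than between genes. The ages summed to 582615, 732957, 354047, 96248 and 81894 counts, with medians of 3037, 2492, 1782, 1600 and 1670 counts per cell. The members took 0.721%, 0.694%, 0.639%, 0.608% and 0.481% of these counts at pnd0, 7, 14, 28 and 56. The floor of 3 counts, used where an age had none, stood at 5.15, 4.09, 8.47, 31.2 and 36.6 CPM. Krt18, a keratin of simple epithelia, had a count in 98.8%, 98.9%, 91.9%, 78.6% and 91.1% of the cells, and Epcam, the gene of the sorted protein, in 50.9%, 44.2%, 34.1%, 28.6% and 53.3%.

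Most members were scarce. All members together had 12531 counts. The 38 with at least 50 counts over the 5 ages were 28.1% of the members, against 4867 rows (39%) of the whole table, and 64 members had 10 counts or fewer. The families that carried the signal were Klf, with 4718 counts in 15 rows, Tead, with 2001 counts in 4 rows, Hoxb, with 1059 counts in 9 rows, and Fox, with 808 counts in 22 rows. The Sox rows had 555 counts, the Pax rows slightly more and Emx2 334. Wt1 had 130 counts and the Hoxd rows 86. The Six-type rows had 90, and the Meis, Dlx, Pbx and Tbx rows lay between these and Emx2. At the other end, Irx had 4 counts, Sall 5, Lhx 8, Hoxa 15, Hoxc 22, Msx 22 and Gata 25. Several factors that textbooks place in the female tract were among the scarce rows. Hoxa9, Hoxa10 and Hoxa11 had 8, 3 and 1 counts, Pax8 had 27, Lhx1 had 5, Msx1 had 2 and Foxa1 had 3. At this depth no order over age can be read for them, and their few counts do not show that the transcripts were absent.

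**Figure D1:**
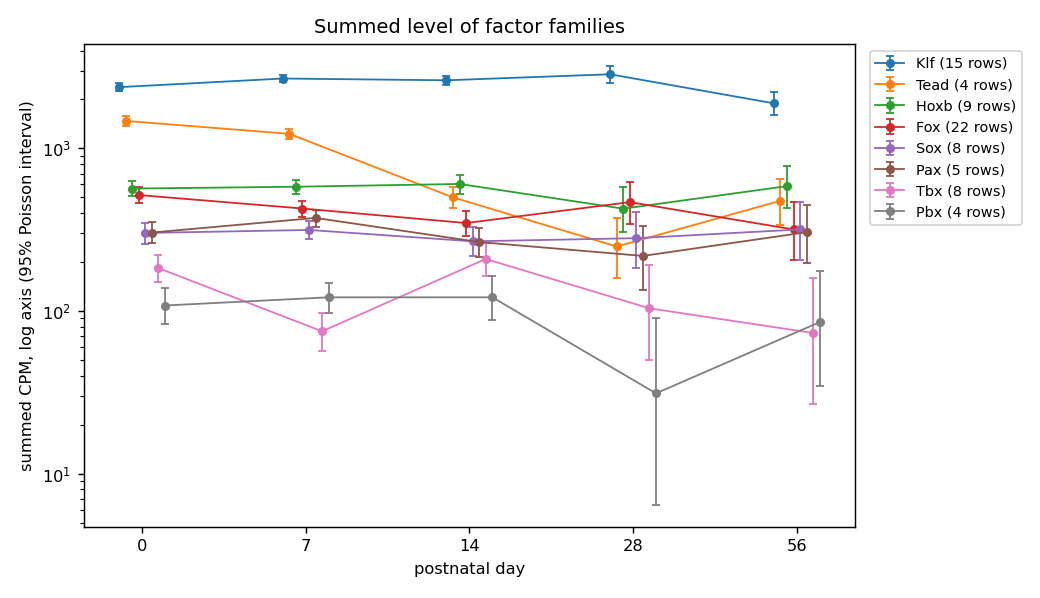
Summed level of 8 factor families at pnd0, 7, 14, 28 and 56 (CPM, log axis, evenly spaced ages), with 95% Poisson intervals of counting error. The Tead sum is 1476 CPM at pnd0 and 500 CPM at pnd14, while the Klf sum lies between 1893 and 2857 CPM at every age.

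The TEAD family showed the largest shift in summed level of the families with over 500 counts. It summed to 1476, 1229, 500, 249.4 and 476.2 CPM at pnd0, 7, 14, 28 and 56. Tead2, expressed early in embryos, made up most of this shift, with 1153, 911.4, 189.2, 155.8 and 354.1 CPM. The early ages, pnd0 and pnd7, were both high, the 3 later ages were low, and their intervals did not overlap: [843.6, 983.2] CPM at pnd7 and [237.2, 508.6] CPM at pnd56 were the nearest. The log2 ratio was −2.27 [−2.65, −1.90] for pnd14 over pnd7 and −1.70 [−2.29, −1.17] for pnd56 over pnd0. From the sums, fewer cells with the transcript and less transcript per cell cannot be told apart.

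Tead2 also differed in the share of cells. A count was present in 74.6%, 63.7%, 15.6%, 10.7% and 20% of the cells from pnd0 to pnd56. With each cell thinned to 1500 counts, which left out 9, 13, 60, 23 and 20 shallower cells, the shares were 59.8%, 54.7%, 15.04%, 6.06% and 20%. The 3 runs of pnd14 gave 177.6, 168.4 and 208.4 CPM for Tead2, the 3 runs of pnd7 gave 788.4, 1096 and 883.5 CPM, and the 2 runs of pnd0 gave 1073 and 1236 CPM. All runs of pnd14 lay below all runs of pnd7 and pnd0. The higher level at pnd56 than at pnd28, a log2 ratio of 1.18 [0.24, 2.19] from 29 and 15 counts, was 0.74 without the cell holding the largest count and 0.99 after thinning.

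Tead1, the member of the family found in most tissues, was level over the first 3 ages. Its values were 314.1, 307, 282, 51.95 and 122.1 CPM over the ages. Both late ages were low, with a log2 ratio of −2.44 [−4.10, −1.17] for pnd28 over pnd14. This rests on 5 counts at pnd28. For pnd56 over pnd0 the log2 ratio was −1.36 [−2.45, −0.45], and −2.17 without the cells of a cluster led by Krtdap, a gene of cornified epithelium. Tead3 had 25 counts in all.

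**Figure D2:**
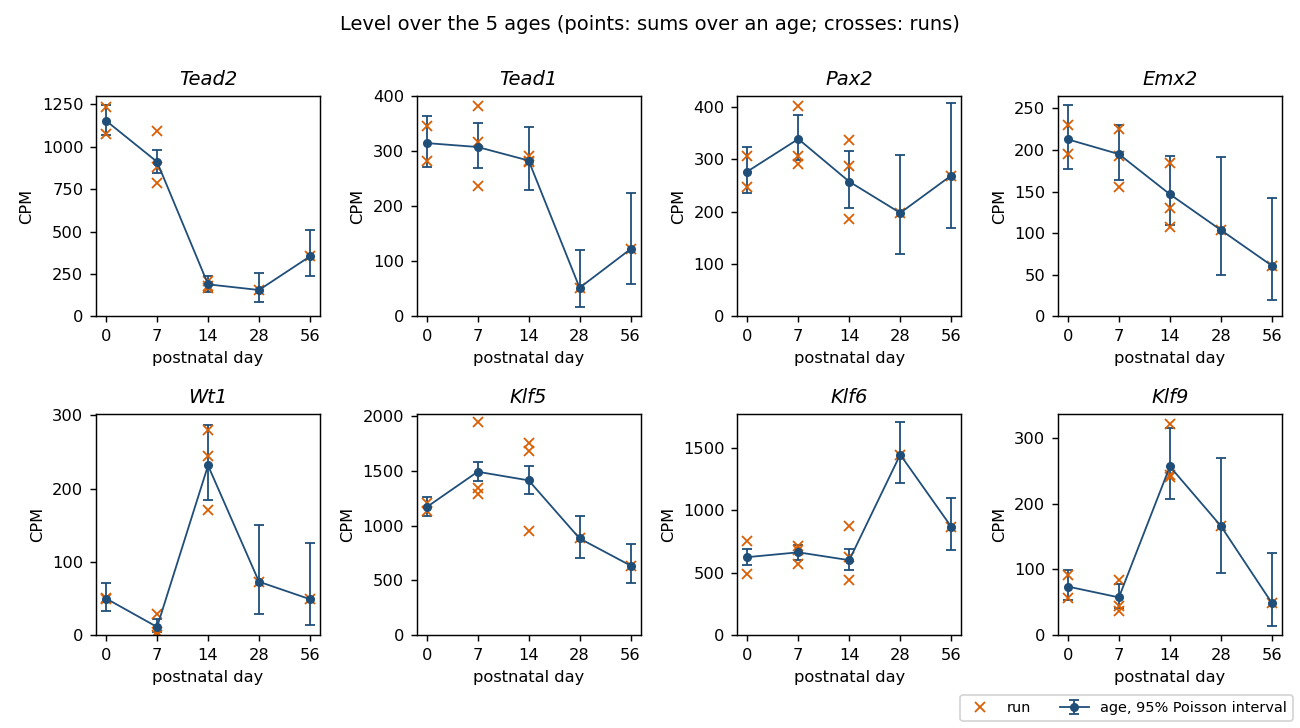
Level (CPM) of members with many counts at pnd0, 7, 14, 28 and 56, evenly spaced, with 95% Poisson intervals, and crosses for the single runs. Tead2 is high at pnd0 and pnd7 and low after, Wt1 and Klf9 are highest at pnd14, and Klf6 is highest at pnd28.

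Of the factors that build the urogenital ducts, Pax2 was present at every age. It measured 276.3, 338.4, 257.03, 197.4 and 269 CPM from pnd0 to pnd56, and no neighbouring pair of ages was 2-fold apart. A count was present in 40.5%, 40.8%, 24.9%, 14.3% and 26.7% of the cells. Emx2, whose loss in the mouse removes the uterus, stepped down at each age, with 212.8, 195.1, 146.9, 103.9 and 61.1 CPM. No neighbouring pair was 2-fold apart, while pnd56 over pnd0 gave a log2 ratio of −1.80 [−3.45, −0.54], resting on 5 counts at pnd56. Six5 had 39.5, 40.9 and 48.02 CPM at the first 3 ages and no count at pnd28 or pnd56, where the floors were 31.2 and 36.6 CPM. Dlx6, a homeobox factor, had 72.1, 79.1, 67.8, 31.2 and 97.7 CPM.

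Wt1, the Wilms tumour factor, was the member furthest apart between neighbouring ages. Its levels were 49.8, 10.9, 231.6, 72.7 and 48.8 CPM, from 29, 8, 82, 7 and 4 counts. Day 14 stood above all other ages, and pnd7 below them. On the log2 scale pnd7 over pnd0 gave −2.19 [−3.53, −1.02], pnd14 over pnd7 gave 4.41 [3.36, 5.67] and pnd28 over pnd14 gave −1.67 [−3.03, −0.56]. All 3 runs of pnd14, at 170, 244.9 and 280 CPM, lay above the runs of pnd7, at 28.7, 0 and 3.52 CPM, and those of pnd0, at 50.8 and 48.7 CPM. Of the 8 counts of pnd7, 7 were in 1 run, and without that run the first of these ratios was −4.61 and the second 6.82. After thinning they were −4.22 and 6.84.

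The Wt1 counts of pnd14 sat in few cells. Cells had been clustered on all other genes with the members left out, and clusters are called by the gene that led them. Of the pnd14 cells, 94 were in a Calb1-led, 42 in an Ovgp1-led and 22 in a Pdlim3-led cluster, and 15 in others. The Pdlim3-led cluster carried smooth muscle genes such as Cnn1, Des, Mylk and Myl9, with the measured smooth muscle markers at 1.404% of its counts. It also had counts of 8 of the 9 measured stroma markers, at 0.7524%, the highest share of any cluster. The stroma share is not particular to it, as the Krtdap-led cells also had 8 of the 9, at 0.6847%. All 10 measured luminal epithelium markers had a count in the Pdlim3-led cells, at 0.2365%, against 0.1704% in the Krtdap-led and more in all other clusters. By its muscle and stroma markers the Pdlim3-led cluster is called muscle- and stroma-like. Wt1 measured 621.7 CPM in the Ovgp1-led, 450 CPM in the Pdlim3-led and 50.2 CPM in the Calb1-led cells, with 49, 19 and 10 of the 82 counts. In runs 3, 4 and 7 the Ovgp1-led cells had 502.8, 396.6 and 792.9 CPM. The 10 counts of the Calb1-led cells were all in run 3, and the Pdlim3-led cells had 0 CPM in run 3 and 582.9 CPM in run 7. That level of run 7 came from 13 of the 19 counts, and the rest were in the 2 Pdlim3-led cells of run 4. For pnd28 over pnd14 the log2 ratio was −0.70 without the Ovgp1-led cells and −2.47 without the Pdlim3-led cells.

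Marker levels of muscle and stroma differed over the same ages. The 5 measured smooth muscle markers held 0.00687%, 0.0181%, 0.283%, 0.130% and 0.0110% of the counts from pnd0 to pnd56, all 5 with a count at pnd14. The 9 measured stroma markers held 0.00395%, 0.0126%, 0.0828%, 0.337% and 0.294%, with Hand2 at 0 at every age but pnd14, Col6a3 at 0 at pnd0, 7 and 28, Lum at 0 at pnd0 and 14, and Postn at 0 at pnd0. Without the Pdlim3-led cells the log2 ratio for pnd14 over pnd7 was 1.22 for Hoxd9, against 2.25 with them. It was −3.10 for Foxm1, against −2.27, and −2.02 for Foxj3, against −1.43. The part of muscle and stroma cells in the differences between ages was not tested.

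**Figure D3:**
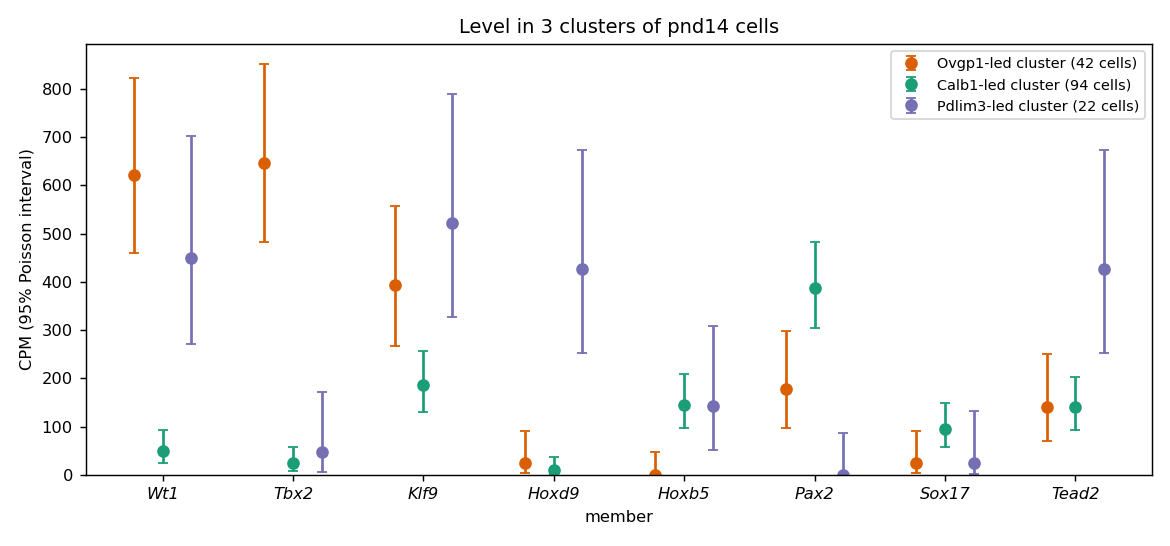
Level (CPM, with 95% Poisson intervals) of members in the Ovgp1-led, Calb1-led and Pdlim3-led cells of pnd14. Wt1 and Tbx2 are highest in the Ovgp1-led cells (621.7 and 647.1 CPM), Pax2 in the Calb1-led cells (386.3 CPM) and Hoxd9 in the Pdlim3-led cells (426.4 CPM).

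Other members split over the pnd14 cells in other ways. Pax2 measured 386.3 CPM in the Calb1-led cells and 177.6 CPM in the Ovgp1-led cells, and had no count in the Pdlim3-led cells. In run 7 the Calb1-led and Ovgp1-led levels of Pax2 were close, at 370.7 and 317.2 CPM. The Ovgp1-led cells of runs 3 and 4 had 1 count of Pax2 each. Sox17 was also highest in the Calb1-led cells, at 95.3 CPM, and had 2 counts in the Ovgp1-led and 1 in the Pdlim3-led cells, too few to order those. Hoxb5 had 145.5 CPM in the Calb1-led and 142.1 CPM in the Pdlim3-led cells, the second from 6 counts in 2 cells, and no count in the 42 Ovgp1-led cells, where the interval reached 46.8 CPM. Klf5 measured 1696, 1167 and 615.9 CPM in the Calb1-led, Ovgp1-led and Pdlim3-led cells, but in run 3 the Calb1-led cells were below the Ovgp1-led ones, at 944.9 and 1160.4 CPM. Pooled over runs, Klf6 was instead highest in the Ovgp1-led cells, with 1078 CPM, against 556.9 CPM in the Calb1-led and 260.6 CPM in the Pdlim3-led cells. In run 4 the order of Klf6 was turned, with 991.5 CPM in the Ovgp1-led and 1238 CPM in the Calb1-led cells. The Pdlim3-led cells had the highest Tead2 and Tead1 levels of pnd14, at 426.4 and 497.4 CPM, and the Calb1-led and Ovgp1-led cells both had 140 CPM of Tead2. In the pnd7 clusters Tead2 lay between 857.9 and 1038 CPM.

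The table had 25 HOX factor rows, 5 of the A, 9 of the B, 5 of the C and 6 of the D cluster. Other HOX genes had no row, so nothing can be said of their level. Within the rows present most counts belonged to the B cluster. The Hoxb factors summed to 566.4, 581.2, 604.4, 425.98 and 586.1 CPM over the ages, and all HOX factors to 623.1, 620.8, 740, 550.7 and 598.3 CPM. The 15 rows of groups 1 to 8, which are the front end of the clusters, held 614, 575.8, 655.3, 488.3 and 586.1 CPM. The 10 rows of groups 9 to 13, the back end, held 8.58, 45.02, 84.7, 62.3 and 12.2 CPM. At pnd7, 13 of the back-end counts were of Hoxc13 in 1 cell, without which the sum was 27.4 CPM. The HOX sum differed by less than 1.5 times between any pair of ages, while single genes differed by more.

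Hoxb7 was the best counted, with 156.2, 147.3, 180.8, 20.8 and 146.5 CPM. Day 28 alone was low, from 2 counts, and the log2 ratio for pnd28 over pnd14 was −3.12 [−6.20, −1.21], or −1.47 after thinning. Hoxb3 had 149.3, 88.7, 93.2, 41.6 and 61.1 CPM, highest at pnd0, with a log2 ratio for pnd56 over pnd0 of −1.29 [−2.95, −0.01] that was −0.77 without run 1. Hoxb4 had 48.1, 68.2, 64.96, 62.3 and 134.3 CPM. For pnd56 over pnd0 its log2 ratio was 1.48 [0.33, 2.53] from 11 and 28 counts, but −0.87 after thinning, so its direction depends on the depth used.

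Hoxb5 and Hoxb8 differed between pnd14 and pnd7 in opposite directions. Hoxb5 measured 65.2, 27.3, 110, 124.7 and 61.1 CPM over the ages, and Hoxb8 measured 48.1, 120, 36.7, 93.5 and 134.3 CPM. At pnd7 Hoxb5 was at its lowest, and Hoxb8 at pnd7 was over 3 times its pnd14 level. For pnd14 over pnd7 the log2 ratio was 2.01 [1.20, 2.87] for Hoxb5 and −1.71 [−2.67, −0.86] for Hoxb8. The 3 runs of pnd14 gave 73.99, 199.005 and 104.2 CPM of Hoxb5, all above the 32.9, 24.4 and 24.6 CPM of the runs of pnd7. Hoxb8 was less even, with 0, 15.3 and 78.1 CPM in the runs of pnd14 and 123.2, 68.2 and 154.9 CPM in those of pnd7. Its log2 ratio was −4.59 without run 7 and −1.02 without run 3. For pnd7 over pnd0 the log2 ratio was −1.26 [−2.12, −0.44] for Hoxb5, or −0.45 without run 2, and 1.32 [0.69, 1.99] for Hoxb8. At pnd56 Hoxb8 stood above pnd0 with a log2 ratio of 1.48 [0.33, 2.53]. Hoxb6 had 58.4, 102.3, 90.4, 31.2 and 48.8 CPM.

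**Figure D4:**
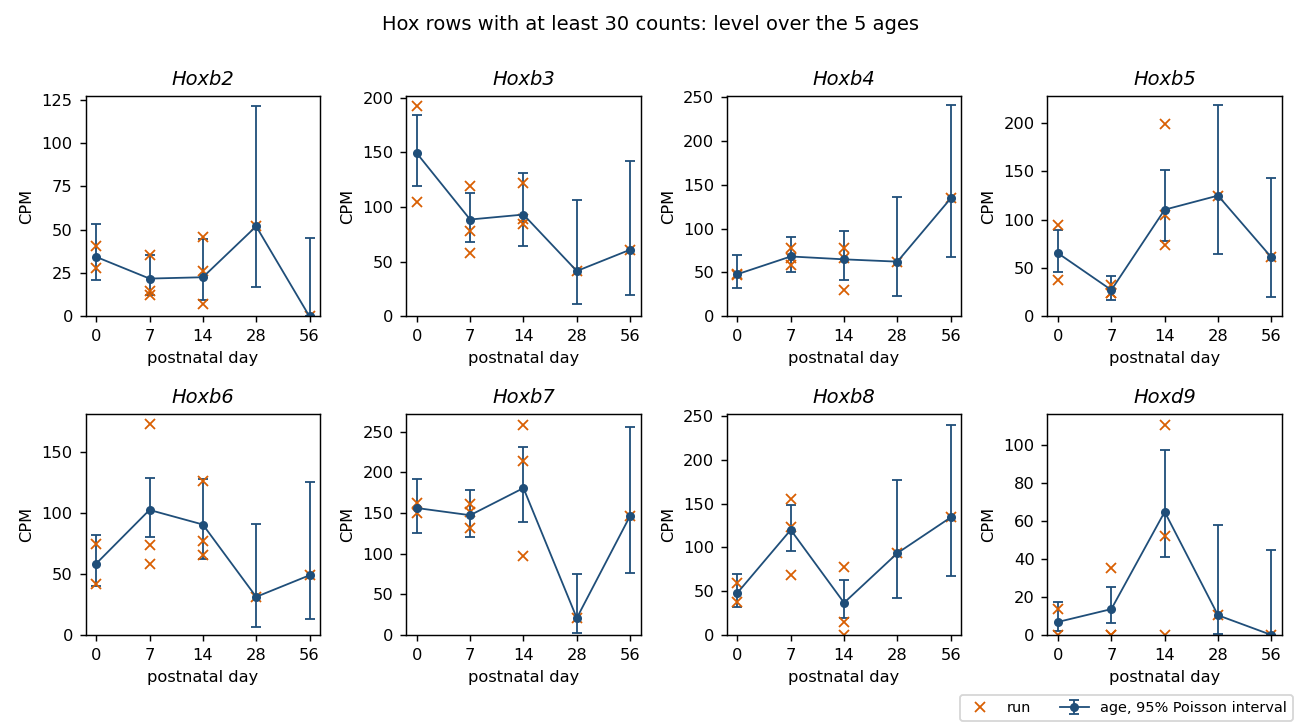
Level (CPM) of the HOX factor rows with the most counts at pnd0, 7, 14, 28 and 56, evenly spaced, with 95% Poisson intervals and crosses for single runs. Hoxb5 is lowest and Hoxb8 high at pnd7, and Hoxd9 is highest at pnd14 with runs far apart.

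Hoxd9, a gene of the back end of the D cluster, had 38 counts in all. Its levels were 6.87, 13.6, 64.96, 10.4 and 0 CPM, highest at pnd14, with a log2 ratio of 2.25 [1.12, 3.49] for pnd14 over pnd7 and −2.64 [−8.01, −0.02] for pnd28 over pnd14. The muscle- and stroma-like Pdlim3-led cells held 18 of its 23 counts of pnd14, at 426.4 CPM, against 25.4 CPM in the Ovgp1-led and 10.03 CPM in the Calb1-led cells. Without the Pdlim3-led cells the log2 ratio for pnd14 over pnd7 was 1.22. The runs of pnd14 had 110.98, 0 and 52.1 CPM, and the 10 counts of pnd7 were all in run 10. Leaving out run 3 gave 1.42 and leaving out run 10 gave 3.28.

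Several HOX rows share DNA with an antisense RNA on the opposite strand. The use of strand in counting was not given in the sources used here. Where strand is not used, reads of such partners cannot be told apart. Hoxb3os had the same count as Hoxb2 and Hoxb3 together in 100 of the cells with either and another count in 29, and all 38 cells with Hoxb2 also had Hoxb3os. Hoxb5os equalled Hoxb5 in 37 cells and differed in 38, and Dlx6os1 equalled Dlx6 in 41 and differed in 62. The rows of these pairs may therefore share reads, and they are not identical. Hoxb5os had 51.5, 61.4, 93.2, 103.9 and 61.1 CPM, without the low pnd7 value of Hoxb5. Its log2 ratio was 0.25 [−0.44, 0.97] for pnd7 over pnd0 and 0.60 [−0.09, 1.28] for pnd14 over pnd7. In run 6 of pnd7 it had 126.6 CPM, against 24.4 CPM of Hoxb5. Hoxb3os had 166.5, 96.9, 87.6, 83.1 and 36.6 CPM, close to the order of Hoxb3, and a log2 ratio of −2.18 [−4.49, −0.59] for pnd56 over pnd0, or −1.26 after thinning. Dlx6os1 had 10 counts at pnd56 and 29 at pnd0, a log2 ratio of 1.29 [0.09, 2.37], which was 0.59 without the cell of its largest count.

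Hoxa11os, the antisense RNA of Hoxa11, was highest at pnd28. It measured 0, 12.3, 16.9, 228.6 and 0 CPM, from 0, 9, 6, 22 and 0 counts. The log2 ratio was 3.75 [2.41, 5.35] for pnd28 over pnd14. With the floor of 3 counts standing for pnd56, the pnd56 level was 6.24-fold lower than that of pnd28. The interval of that ratio reached −2.22 on the log2 scale. The 22 counts lay in few cells. Of these, 13 were in 3 of the 7 muscle- and stroma-like Pdlim3-led cells of pnd28, at 920.7 CPM. A single cell of the 16 Krtdap-led cells held 8, and 1 lay in the 30 H2-Eb1-led cells that carried gland genes such as Prss28 and Prss29. Values for pnd28 over pnd14 were 3.12 without the cell of the largest count, 3.06 without run 3 and 2.998 after thinning. For pnd56 over pnd28 the value with the floor was −2.64 on the log2 scale, and −0.82 after thinning, −1.58 without the Pdlim3-led cells and −2.004 without the cell of the largest count. Hoxa11 itself had 1 count. Hoxaas3, another antisense row of the A cluster, had 10.9 CPM at pnd7 and 32.6 CPM at pnd0, a log2 ratio of −1.58 [−2.98, −0.32], or −0.94 without run 1 and −2.37 after thinning.

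The HOX cofactors were low. Pbx2 had 53.2, 84.6, 98.9, 20.8 and 48.8 CPM, with a log2 ratio of −2.25 [−5.35, −0.29] for pnd28 over pnd14 from 2 and 35 counts, and −1.03 after thinning. Meis1 had 36.04, 42.3, 8.47, 0 and 0 CPM, with −2.32 [−4.67, −0.64] for pnd14 over pnd7 from 3 and 31 counts, and between −1.50 and −1.63 without run 3, run 7, run 10 or the Ovgp1-led cells. These rows do not allow an order over age.

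KLF factors were the most counted family and differed from each other in their course. Their sum was 2381, 2690, 2624, 2857 and 1893 CPM. Klf5, a zinc finger factor of dividing epithelia that the mouse uterus needs for implantation, made up the largest share, with 1171, 1494, 1415, 883.1 and 634.97 CPM. It was highest at pnd7 and pnd14 and lowest at pnd56, and no pair of ages compared was 2-fold apart. Klf3, a repressor of the family, stayed between 187.02 and 260.9 CPM.

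Klf9, a partner of the progesterone receptor in the uterus, was highest at pnd14, with 73.8, 57.3, 257.03, 166.2 and 48.8 CPM. The log2 ratio for pnd14 over pnd7 was 2.17 [1.62, 2.73]. The 3 runs of pnd14, at 244.2, 321.5 and 240.9 CPM, lay above the runs of pnd7, at 36.96, 43.8 and 84.5 CPM. Within pnd14 it measured 521.1 CPM in the Pdlim3-led, 393.3 CPM in the Ovgp1-led and 185.6 CPM in the Calb1-led cells. In each of the 3 runs the Ovgp1-led and Calb1-led cells were above the pnd7 level, some of them on few cells. The Ovgp1-led cells had 6 counts in 2 of 17 cells in run 3 and 6 counts in 3 of 5 cells in run 4. The Calb1-led cells of run 4 had 8 counts in 2 of 12 cells. The Pdlim3-led value rested on 3 of 22 cells, with 15 counts in 1 cell of run 3 and 6 in 1 cell of run 4, and the 13 such cells of run 7 had 1 count, or 44.8 CPM, below the pnd7 level. For pnd56 over pnd28 the log2 ratio was −1.77 [−3.81, −0.13] from 4 and 16 counts, −2.95 without the Krtdap-led cells and −2.60 after thinning. The promoter of Klf9 printed above has a CACCC box, the kind of sequence that KLF factors bind, as do 57.5% of all promoters.

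Klf10, induced early by TGF-beta, had a different course from Klf9. Its levels were 147.6, 156.9, 36.7, 93.5 and 36.6 CPM, high at pnd0 and pnd7. The log2 ratio was −2.10 [−3.05, −1.26] for pnd14 over pnd7, with 59.2, 0 and 32.6 CPM in the runs of pnd14 and 147.8, 209.4 and 126.7 CPM in those of pnd7, and −2.78 without run 3. For pnd56 over pnd0 it was −2.01 [−4.32, −0.42] from 3 and 86 counts. Klf11 had 53.2, 54.6, 36.7, 72.7 and 24.4 CPM.

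Klf6, a factor that cells switch on soon after injury or stimulation, stood out at pnd28. It had 623.1, 661.7, 598.8, 1444 and 866.97 CPM, and a count in 75% of the pnd28 cells, against 46.8% of the pnd14 cells. After thinning these shares were 84.8% and 48.7%. The log2 ratio for pnd28 over pnd14 was 1.27 [0.95, 1.59], and 1.65 without the Ovgp1-led cells. Within pnd28 it measured 1735 CPM in the 30 H2-Eb1-led and 1174 CPM in the 16 Krtdap-led cells. Early response genes, which can be switched on by cell handling, also differed over these ages. Fos measured 3318, 3706, 8183, 9195 and 4310 CPM, Egr1 2679, 1963, 2141, 2733 and 1319 CPM, Ier3 1668, 1097, 980, 3678 and 2857 CPM, and Jun 363.9, 298.8, 576.2, 457.2 and 390.7 CPM. Their part in the Klf6 difference was not tested, and pnd28 was 1 run.

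SOX factors summed to 302, 315, 268, 281 and 317 CPM. Sox15 led them, with 151.04, 166.4, 166.6, 155.8 and 220 CPM and no neighbouring pair 2-fold apart. Its 3′ end lies 30 bases from that of Mpdu1 on the other strand, a gene with 23 counts. Sox17, which the mouse uterus needs to form glands, had 65.2, 72.3, 62.1 and 31.2 CPM at pnd0, 7, 14 and 28 and no count at pnd56, where the floor was 36.6 CPM. At pnd0, 35 of its 38 counts were in the 77 Meg3-led cells, at 126.98 CPM, against 0 to 32.1 CPM in the other clusters. Sox9 had 36.04, 23.2, 11.3, 51.95 and 61.1 CPM from 52 counts, and its pnd14 value was past 2-fold below that of pnd7 with an interval, [−3.07, 0.58] on the log2 scale, that takes in no difference. Sox7 had 8.47 CPM at pnd14 and 30.02 CPM at pnd7, a log2 ratio of −1.82 [−4.21, −0.09], −2.59 without run 7 and −1.15 after thinning.

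Forkhead factors summed to 516.6, 427.04, 347, 467.5 and 317 CPM. Foxp1, a repressor, had 142.5, 143.3, 53.7, 93.5 and 134.3 CPM and was lowest at pnd14, with a log2 ratio of −1.42 [−2.20, −0.70] for pnd14 over pnd7 that was −0.94 without run 7. Foxm1, which drives genes of mitosis, had 51.5, 54.6, 11.3, 10.4 and 0 CPM, and a log2 ratio of −2.27 [−4.22, −0.80] for pnd14 over pnd7 from 4 and 40 counts. It was −1.25 after thinning, −2.88 without the Ovgp1-led and −3.10 without the Pdlim3-led cells. At pnd7 it was highest, at 122.7 CPM, in the 54 cells led by the S phase histone gene Hist1h2an, against 4.76 CPM in the 69 Meg3-led cells. Foxj3 had 19.8 CPM at pnd14 and 53.2 CPM at pnd7, a log2 ratio of −1.43 [−2.83, −0.25]. It was −0.73 without run 3, −0.87 without run 6, −2.02 without the Pdlim3-led cells and −3.36 after thinning. Foxn2 was even, with 72.1, 83.2, 73.4, 83.1 and 61.1 CPM.

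Foxq1, a forkhead factor, had most of its newborn counts in a small set of cells. It had 60.1, 4.09, 8.47, 51.95 and 12.2 CPM, and a log2 ratio of −3.88 [−6.22, −2.21] for pnd7 over pnd0. Of the 35 counts of pnd0, 30 were in 13 cells of the Upk3a-led cluster, at 962.9 CPM, and the other 5 in Meg3-led cells. Upk3a is a uroplakin, a protein of the bladder lining. Of the 3 measured urothelium markers, only Upk3a itself had a count in this cluster. Upk1a was at 0 at pnd0, Upk1b and Upk3a were at 0 at pnd7, and all 3 were at 0 from pnd14 on. Without that cluster the log2 ratio was −1.13. It was −4.52 without run 1, −2.73 without run 2, −4.75 without run 10 and −3.21 without the cell of the largest count. The same 13 cells had 1188 CPM of Tead1, 610 CPM of Tbx2 and 513.6 CPM of Klf10, each above the other clusters of pnd0, and no count of Pax2, which measured 225.1 to 338.7 CPM in those.

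Tbx2, a repressor that holds back cell cycle inhibitors, had values that rested on 1 run at pnd14. It had 164.8, 45.02, 169.5, 83.1 and 36.6 CPM. The log2 ratio was −1.87 [−2.49, −1.29] for pnd7 over pnd0, with runs of pnd7 at 32.9, 77.9 and 31.7 CPM below runs of pnd0 at 145.6 and 184.5 CPM, and −2.89 after thinning. For pnd14 over pnd7 it was 1.91 [1.28, 2.57], or 3.02 after thinning, but the runs of pnd14 had 44.4, 45.9 and 332.1 CPM. Without run 7 the log2 ratio was −0.0042, and without the Ovgp1-led cells it was −0.20, so the direction did not hold. Ovgp1-led cells held 51 of the 60 counts of pnd14, and 48 of these were in run 7, at 1269 CPM. For pnd56 over pnd0 the log2 ratio was −2.17 [−4.47, −0.58] from 3 and 96 counts, and −1.29 after thinning. Msx2 had 15 counts at pnd7 and 5 at pnd0, a log2 ratio of 1.25 [−0.28, 3.07], and none later.

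The 6 rows that only share letters included better counted genes. Gatad2b, a subunit of the NuRD complex, had 133.9, 154.2, 124.3, 124.7 and 73.3 CPM, and Pbxip1, a protein that binds PBX, had 111.6, 105.1, 160.996, 176.6 and 207.6 CPM. Gatad1 had 137.3, 62.8, 110, 83.1 and 0 CPM. Its log2 ratio for pnd7 over pnd0 was −1.13 [−1.69, −0.59], between −0.64 and −0.98 without run 1, run 5 or run 10. With the floor of 3 counts standing for pnd56, it was 3.75-fold lower at pnd56 than at pnd0. On the log2 scale this was −1.91, with an interval that reached −1.57, and −0.66 after thinning. Paxbp1 had 11.3 CPM at pnd14 and 47.8 CPM at pnd7, a log2 ratio of −2.08 [−4.03, −0.60], or −3.39 without run 3.

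The members were then counted in each comparison. To be measured, a member needed 20 or more counts in the 2 ages summed, and it was past the fold when its CPM was at least 2-fold apart, whatever its interval. The same count over all rows of the table is the background. For pnd7 over pnd0, 47 members were measured. There, 3 were higher (6.38%) against a background of 4.94% of rows, and 6 were lower (12.8%) against 7.61%. The median log2 ratio was 0.04 for members and −0.03 for all rows. Hoxb8 and Msx2 were among the higher ones, and the lower ones were Foxq1, Wt1, Tbx2, Hoxb5, Hoxaas3 and Gatad1.

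Between pnd14 and pnd7, 44 members were measured. Of these, 5 were higher (11.4%), against 10.7% of all rows, and 11 were lower (25%), against 14.3%. The median log2 ratio was −0.14 for members and −0.10 for all rows. Wt1, Hoxd9, Klf9, Hoxb5 and Tbx2 were higher. Meis1, Foxm1, Tead2, Klf10, Paxbp1, Sox7, Hoxb8, Klf12, Foxj3, Foxp1 and Sox9 were lower, Klf12 and Sox9 with intervals that take in no difference. The share of higher members was near the background.

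At pnd28 against pnd14, 33 members were measured, with 4 higher (12.1%), against 11.9% of all rows, and 10 lower (30.3%), against 23.2%. The median log2 ratio was −0.37 for members and −0.23 for all rows. Hoxa11os and Klf6 were higher with intervals that leave out no difference, and Hoxb8 and Klf10 with intervals that take it in. Among the lower, Hoxb7, Hoxd9, Tead1, Pbx2 and Wt1 had intervals that leave it out, and Foxo4, Hoxb6, Hoxb3, Dlx6 and Tbx2 did not. All 10 lower members rested on 8 counts or fewer at pnd28.

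The adult comparisons were thin. For pnd56 over pnd28, 11 members were measured, with 1 higher (Tead2, 9.09%), against 14.8% of all rows, and 2 lower (Hoxa11os and Klf9, 18.2%), against 16.5%. Their median log2 ratio was 0.39 and that of all rows 0.06. For pnd56 over pnd0, 38 were measured, with 3 higher (7.89%), against 10.4% of all rows, and 11 lower (28.9%), against 27.7%. The medians were −0.23 for members and −0.36 for all rows. The higher ones were Hoxb8, Hoxb4 and Dlx6os1. Among the lower, Foxq1, Foxo4 and Klf11 had intervals that take in no difference, and the others were Hoxb3os, Tbx2, Klf10, Gatad1, Emx2, Tead2, Tead1 and Hoxb3. The shares in both directions were near or below the background.

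**Figure D5:**
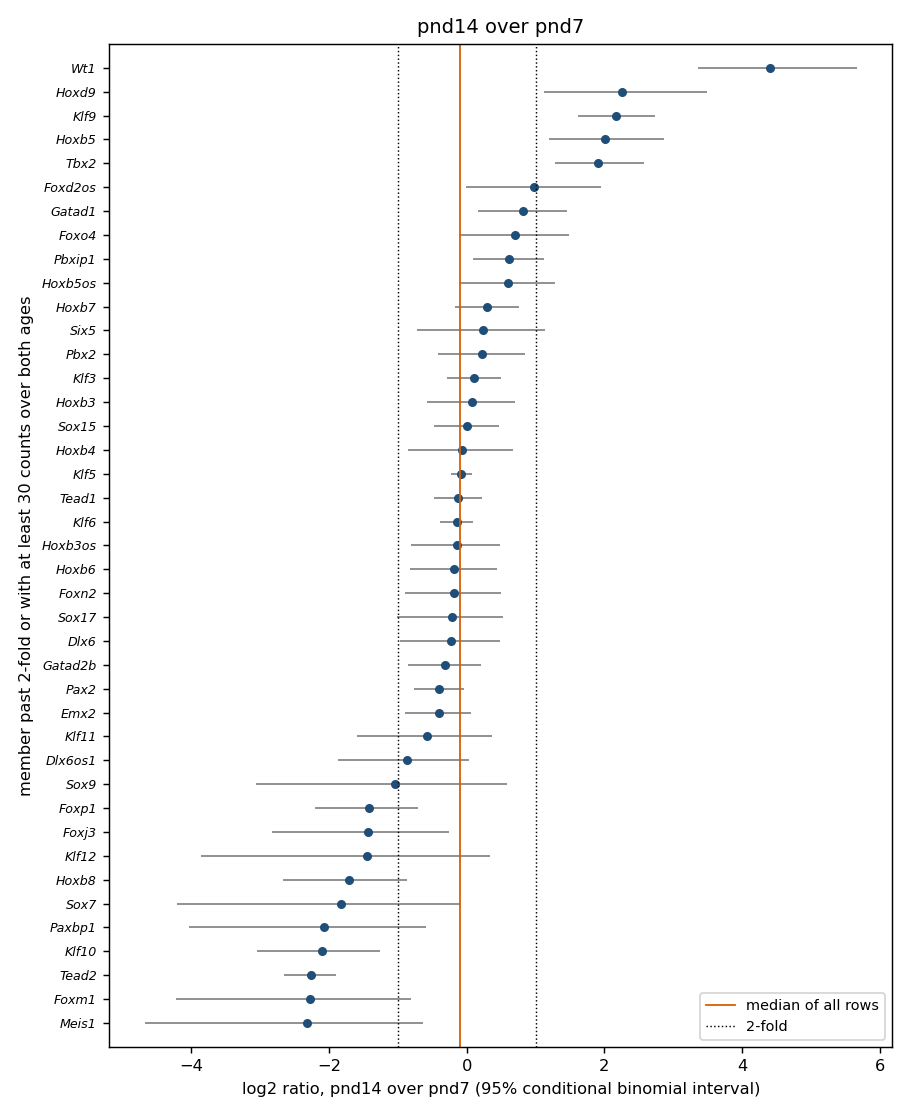
Log2 ratio of pnd14 over pnd7 for members that are past 2-fold or have at least 30 counts over both ages, with 95% conditional binomial intervals of counting error. Dotted lines mark 2-fold and the solid line the median of all rows. Wt1 stands highest at 4.41 and Meis1 lowest at −2.32, and Tead2 stands at −2.27 with a narrower interval.

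The 38 members with at least 50 counts did not crowd at 1 age. Their highest level was at pnd0, 7, 14, 28 and 56 for 8, 10, 8, 5 and 7 members, which is 21.1%, 26.3%, 21.1%, 13.2% and 18.4% of them. Over the 4867 rows with as many counts the shares were 22.3%, 18.5%, 20.8%, 19.4% and 19.2%.

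Genes that work with these factors were counted by the same rule. Their lists were chosen with earlier results of these data known, so their shares are descriptions only. Over all rows, 4.94%, 10.7%, 11.9%, 14.8% and 10.4% were higher and 7.61%, 14.3%, 23.2%, 16.5% and 27.7% lower in the 5 comparisons, in the order given above, with medians of −0.03, −0.10, −0.23, 0.06 and −0.36. Of the regulators of HOX chromatin (MLL, Polycomb and related proteins), 16, 14, 8, 4 and 12 were measured in these comparisons. They had 0 higher and 0 lower in the first, and 0 higher and 4 lower (28.6%, against 14.3% of all rows) in the second. These were Kmt2a, Kmt2d, Cbx2 and Wdr5, and the intervals of Kmt2d and Wdr5 take in no difference. Kmt2a, a histone methyltransferase that keeps HOX genes on, had 50.8 CPM at pnd14 and 115.97 CPM at pnd7, and Cbx2, a Polycomb protein, had 28.2 and 105.1 CPM. Kmt2a was then higher at pnd28, with 207.8 CPM, and 3 others were lower than at pnd14 (37.5%, against 23.2%), all 3 with intervals that take in no difference. For pnd56 over pnd28 there were 0 higher and 3 lower of the 4, and for pnd56 over pnd0 0 higher and 5 lower (41.7%, against 27.7%), with Ezh2, the Polycomb methyltransferase, at 48.8 CPM at pnd56 and 187.1 CPM at pnd0. The medians were 0.09, −0.07, −0.37, −1.48 and −0.75.

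Partners and targets of TEAD were counted next. The listed row Taz was left out, because in the mouse annotation that symbol is tafazzin, a mitochondrial protein, and not the partner of YAP. Of 6, 7, 5, 1 and 6 measured, the higher and lower ones were 0 and 1, 1 and 0, 0 and 2, 0 and 0, and 0 and 1. The 1 lower is 16.7% in the first and the last comparison, against 7.61% and 27.7% of all rows, and the 2 lower for pnd28 over pnd14 (40%, against 23.2%) had intervals that take in no difference. Amotl2, which binds YAP, was the lower one for pnd7 over pnd0 (122.8 and 248.9 CPM) and for pnd56 over pnd0 (110 CPM at pnd56). Ctgf, a YAP target, had 56.5 CPM at pnd14 and was at 0 at pnd7. It was the 1 higher for pnd14 over pnd7, or 14.3% against 10.7% of all rows. The medians were −0.39, −0.05, −0.78, −0.40 and −0.40.

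Retinoid receptors and their corepressors, which act on HOX genes, had 5, 5, 4, 1 and 5 measured, with none higher, and 1 lower for pnd7 over pnd0 (Rarg, 25.9 and 56.6 CPM, or 20% against 7.61% of all rows) and 2 lower for pnd56 over pnd0, or 40% against 27.7% (Rxrb, 12.2 and 139.03 CPM, and Ncor1, 36.6 and 139.03 CPM). The medians were −0.28, −0.61, −0.28, 0.16 and −0.63.

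Patterning factors of other families gave 15, 18, 14, 5 and 15 measured. For pnd14 over pnd7, 8 were higher (44.4%, against 10.7% of all rows) and 2 lower (11.1%, against 14.3%), with a median of 0.01, against −0.10 over all rows. As the list was chosen with earlier results of these data known, the share of higher ones cannot be read as an excess over the background. Nr2f1 and Nr2f2, orphan nuclear receptors, had 53.7 and 505.6 CPM at pnd14, against 1.36 and 186.9 CPM at pnd7. Osr2 had 118.6 and 9.55 CPM, Ehf, an epithelial ETS factor, 81.9 and 12.3 CPM, and Tfcp2l1 474.5 and 218.3 CPM, in the same order of ages. Prrx2, Id2 and Id4 were the other higher ones, and Mecom and Runx1 the lower, Runx1 with an interval that takes in no difference. The other comparisons had 0 higher and 2 lower, 0 and 4, 1 and 3, and 1 and 6, for pnd7 over pnd0, pnd28 over pnd14, pnd56 over pnd28 and pnd56 over pnd0. The lower ones were 13.3%, 28.6%, 60% and 40%, against 7.61%, 23.2%, 16.5% and 27.7% of all rows. Their medians were −0.0026, −0.14, −1.85 and −0.77.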

How the data were processed

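Single CD326+ uterine cells of 5 ages had been made into CEL-seq libraries, per the labels' protocols. The authors deposited whole-number counts for 12479 gene rows in 714 cells, and 92.3% of the values are 0. The submitters' processing notes name TopHat, Cuffnorm and mm9, without roles or versions. Collapse of molecular identifiers and use of strand in counting were not given in the sources used here. Per the series text 960 cells were sorted, and the rule that kept 714 was not given there.

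Counts were summed per age and given as CPM with exact Poisson 95% intervals. Ratios carry exact conditional binomial 95% intervals. Where 1 age had 0 counts, a floor of 3 counts stood in for it, and the ratio so given is not a limit of the interval. With PCR or linear amplification these intervals cover counting error only. The ratio computation was tested on simulated data. To be measured, a member needed 20 or more counts in the 2 ages summed, and it was past the fold at 2-fold. No test was run. Members were named with at least 50 counts over the ages. In each comparison the first 12 per direction past the fold, ranked by the interval bound nearest to no difference, were also named, except 1 that is not reported here. Scarcer rows were named for a known role, or after their values were seen (Hoxd9, Hoxa11os, Hoxaas3, Foxq1, Msx2, Sox7, Klf12, and the early response genes beside Klf6). The members and lists were chosen with earlier results of these data known. Leaving Taz out of the TEAD list, and the cell with Hoxc13 out of a HOX sum, was chosen after seeing the data.

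Cells were clustered (scanpy 1.11.5, Leiden, resolution 1, 2000 variable genes, 20 components, 15 neighbours) without the member rows. This gave 10 clusters, used for description only, and no doublet caller was run. All 135 member names matched GENCODE M21, as did 12107 of the 12479 row names. This annotation served for names and neighbours only. Python 3.11.15, numpy 2.4.6, scipy 1.17.1 and pandas 2.3.3 were used. Alternatives were the count minimum, the scaling, thinning, single runs, single cells and single clusters left out.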

Additional observations from a re-analysis of the deposited data

How the results depend on the processing

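No paired analysis was possible because the runs are nested in the ages and the labels give no number shared between ages. Median-of-ratios scaling shifted all log2 ratios by 0.10 for pnd14 over pnd7 and 0.19 for pnd56 over pnd0, and by 0.02 to 0.04 otherwise. Of 80 counts of members past the fold under settings other than a run left out, 56 stayed within 1.5 times, and 26 of 32 with a run left out. All but 20 of the recomputed ratios of named members stayed within their interval. Of these 20, 3 changed sign: Tbx2 for pnd14 over pnd7, at −0.0042 without run 7 (−0.0042 to 2.45 over the runs left out) and −0.20 without the Ovgp1-led cells, and Hoxb4 for pnd56 over pnd0, at −0.87 after thinning.

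The counts of members here and in the next paragraph come without the number measured or the share over all rows under each setting. They show how far the counts move and cannot be set against a background. With a minimum of 10 counts, which adds scarce rows, the members higher and lower were 5 and 11 for pnd7 over pnd0, 9 and 17 for pnd14 over pnd7, and 6 and 6 for pnd56 over pnd28, and 7 were higher for pnd28 over pnd14. With a minimum of 50 counts, they were 1 and 3 for pnd7 over pnd0, 1 and 4 for pnd28 over pnd14, and 0 and 0 for pnd56 over pnd28, with 4 lower for pnd14 over pnd7 and 0 higher for pnd56 over pnd0. After thinning, which leaves fewer cells and counts, they were 1 and 6 for pnd28 over pnd14 and 0 and 0 for pnd56 over pnd28, with 0 higher for pnd56 over pnd0. Of the settings chosen after seeing the data, leaving out the Krtdap-led cells gave 0 lower for pnd56 over pnd28, and leaving out the Ovgp1-led cells gave 2 higher for pnd28 over pnd14 and 5 higher for pnd56 over pnd0. Leaving out the Pdlim3-led cells, planned, gave 0 lower for pnd56 over pnd28. A count of 0 here does not show that the differences were gone, because members under the count minimum are not counted. For pnd56 over pnd28, Hoxa11os still had a log2 ratio of −1.58, with the floor, without the Pdlim3-led cells. Klf9 had −2.95 without the Krtdap-led cells, and both values are past the fold. After thinning Klf9 had −2.60, past the fold, while Hoxa11os (−0.82) and Tead2 (0.99) were not.

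With each run left out in turn, the counts of higher and lower members ran from 1 to 4 and 5 to 8 for pnd7 over pnd0, from 5 to 8 and 8 to 11 for pnd14 over pnd7, from 2 to 4 and 6 to 9 for pnd28 over pnd14, and from 3 to 4 and 8 to 10 for pnd56 over pnd0. The ages pnd28 and pnd56 have 1 run each, so none could be left out there. Depth limits both: 1 count is worth over 10 CPM there, and 64 members have 10 counts or fewer in all. What moved these values was not tested except where a setting itself removes rows or cells.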
